A study of Mus musculus with 17 samples.

Results

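Primitive endoderm factors and simple epithelial keratins were followed as a set of 9 genes, chosen by name from a list and found by symbol among the 55416 gene IDs counted. The set holds the transcription factors Gata6, Gata4 and Sox17, the endocytic adaptor Dab2, the receptor Pdgfra, the endocytic receptor Cubn, and the keratins Krt8, Krt18 and Krt19. All 9 were counted in every library and passed the filter on low counts in all fits, so none is left out below. The RNA came from mouse embryonic stem cells of the Rpl31-FTA E14Tg2a.4 line, whose Rpl31, a protein of the large ribosomal subunit, is fused to FLAG, a TEV cleavage site and an AviTag. The cells grew in serum with leukemia inhibitory factor. Ribosomes next to the endoplasmic reticulum (ER) were biotinylated by the ER-targeted proximity system ALIBi and pulled down, and polyA RNA was sequenced from the pulldown (ER ribosome-bound RNA) and from the lysate before it (whole-cell RNA). The siRNAs used were a scramble control, one targeting Nmd3, an export adaptor of the large ribosomal subunit, and one targeting Gnl3, the nucleolar GTPase nucleostemin. ER ribosome-bound RNA was analysed in 2 scramble libraries (replicates 2 and 3), 3 Nmd3 libraries and 3 Gnl3 libraries. Whole-cell RNA was analysed in 3 scramble libraries, 2 Nmd3 libraries (replicates 1 and 3) and 2 Gnl3 libraries (replicates 1 and 2). Both knockdowns were set against the same scramble libraries, so the 2 comparisons share their controls. All groups carry the tagged Rpl31 and ALIBi. The length of siRNA treatment, and whether the tagged line is a single clone, are not given in the sources used here.

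Primitive endoderm is the extraembryonic layer that segregates from epiblast in the blastocyst and goes on to form visceral and parietal endoderm. Its cells are set apart by FGF and ERK signalling, switch on Gata6 and then Gata4 and Sox17, and carry the PDGF receptor Pdgfra on their surface. Their descendants take up nutrients through cubilin (Cubn) with the help of the adaptor Dab2. Keratins build intermediate filaments as obligate pairs of a type II and a type I chain: Krt8 is the type II chain of simple epithelia, and Krt18 and Krt19 are type I chains that pair with it. Embryonic stem cell cultures in serum are known to hold small numbers of cells that express primitive endoderm or keratin genes. In bulk RNA, a change in the number of such cells and a change in the RNA of each cell cannot be told apart.

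The labelled cell type matched its markers, with all 31 pluripotency genes of a fixed list above 0.5 CPM (counts of a gene per 1000000 gene counts of the library) in every group and a summed level of 11710 to 15301 CPM in the 15 libraries analysed. Each library held between 15198736 and 29904256 gene counts. Nmd3 counts fell by 2.29 (log2) in ER ribosome-bound and by 1.81 in whole-cell RNA of cells given the Nmd3 siRNA (edgeR adjusted p = 2.44e-20 and 7.97e-19). Gnl3 counts fell by 2.58 and 2.10 in the 2 fractions under its own siRNA (edgeR adjusted p = 0.0092 and 5.50e-13). Nmd3 whole-cell replicate 2 and Gnl3 whole-cell replicate 3 were described by the submitters as outliers that they excluded, and they enter no group value here. Nmd3 ER ribosome-bound replicate 2 also stood apart: it held 263 CPM of Gnl3 against 164 and 179.8 in the other Nmd3 libraries of that fraction, and 433 CPM of the fibronectin gene Fn1 against 260.1 to 310 in the other 7 ER ribosome-bound libraries.

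The keratins were the most abundant genes of the set, and Sox17 and Gata6 had the fewest counts summed over the 15 libraries analysed. Per kb of exon, scramble whole-cell RNA held 15.2 ± 0.961 CPM of Krt8 and 14.7 ± 1.31 of Krt18 (SD, n = 3), with overlapping ranges. Krt19 followed at 3.78 ± 0.276 CPM per kb, then the zinc finger factor Gata4 at 1.27 ± 0.131 and Dab2 at 0.570 ± 0.086, each apart from its neighbours in that order. Gata6, Cubn and Pdgfra lay together at 0.247, 0.238 and 0.232 CPM per kb, with overlapping ranges, and the HMG-box factor Sox17 was lowest at 0.122. In ER ribosome-bound RNA of scramble cells the order was the same from Krt19 to Dab2, while Cubn, at 0.0409 CPM per kb, moved to the last place beside Sox17 at 0.0614, where the ranges overlapped. Sox17 was counted 1 to 18 times per library over all 17 libraries, Cubn 5 to 88 times and Gata6 11 to 89 times, whereas Krt8 was counted 352 to 1023 times. A change of a given size in Sox17, Cubn or Gata6 is therefore known far less precisely than one in Krt8, as the standard errors below show.

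**Figure D1:**
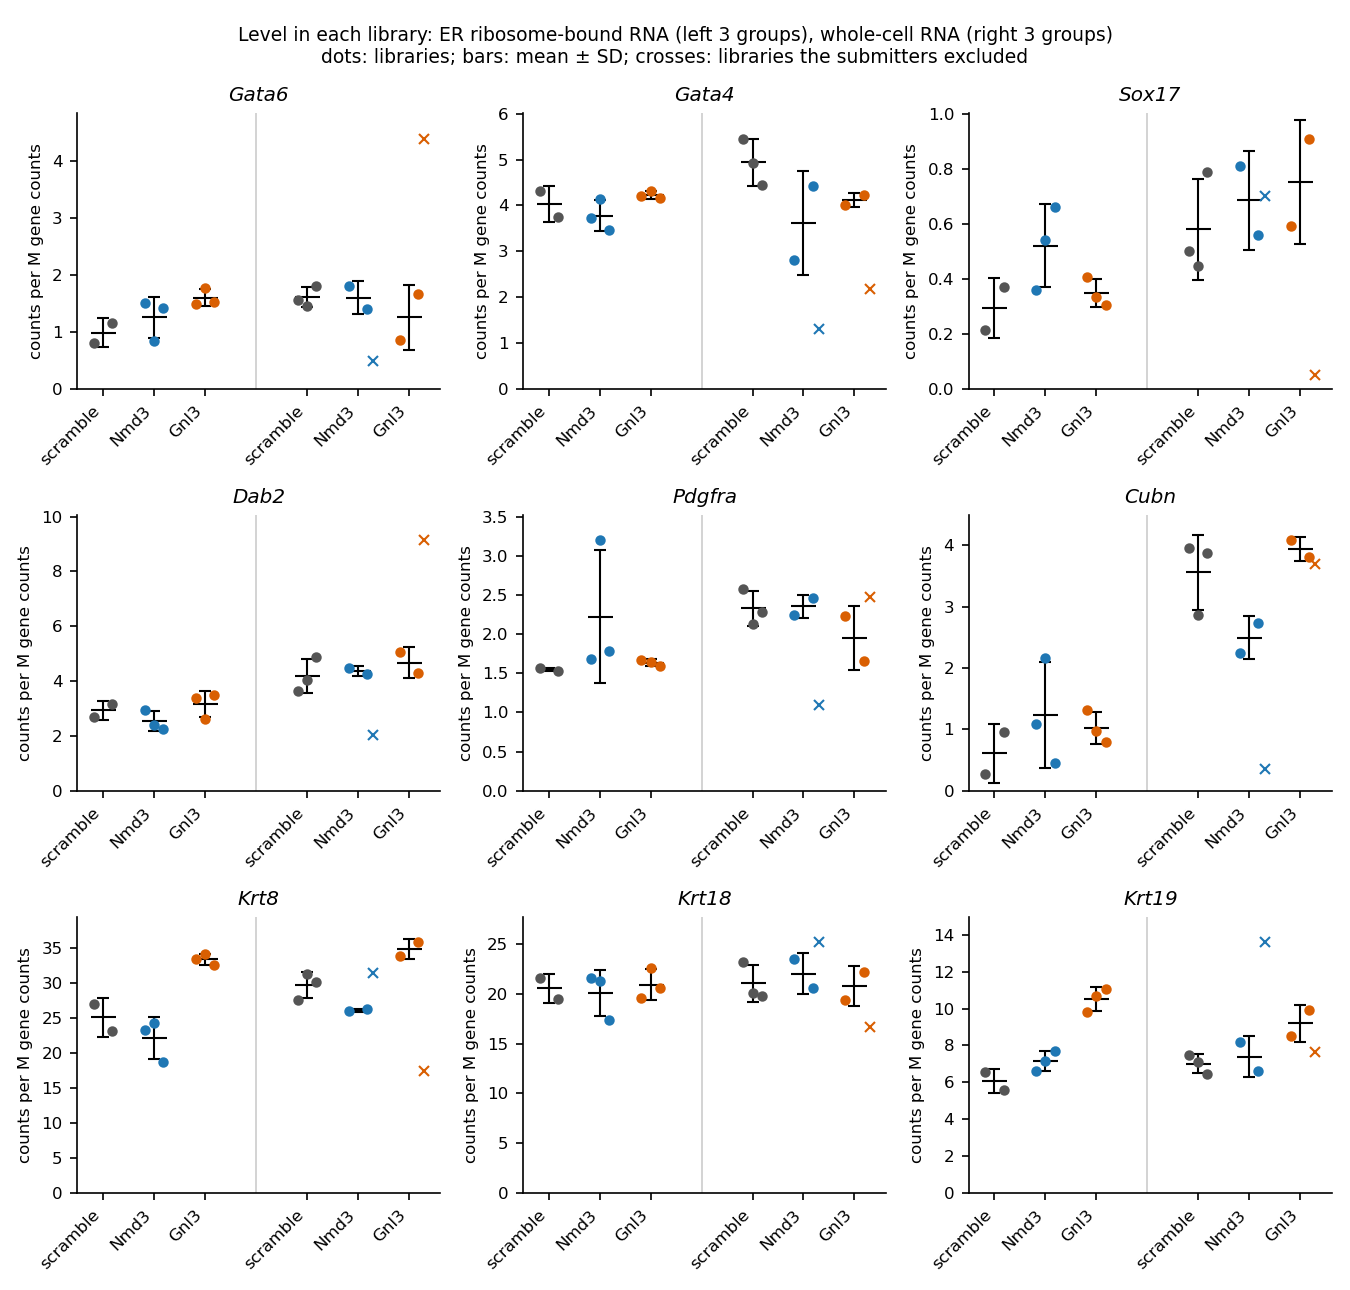
Level of each of the 9 genes in every library, in CPM (y axes start at 0). Dots are libraries and bars are mean ± SD of the groups along the x axis, with ER ribosome-bound RNA on the left and whole-cell RNA on the right of each panel; crosses are the 2 libraries the submitters excluded. Krt8 and Krt19 sit higher in all 3 Gnl3 ER ribosome-bound libraries than in the scramble and Nmd3 libraries of that fraction, and Cubn sits lower in ER ribosome-bound than in whole-cell RNA.

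Krt8 and Krt18 are neighbours on chromosome 15, read from opposite strands, with start sites 23.874 kb apart in the RefSeq promoter table (build GRCm38.p6). Their promoters are shown because the 2 genes encode the partners of 1 filament and their counts moved differently in the Gnl3 knockdown. Each run below goes from 250 bases before the start site to 20 bases into the transcript, 5′ to 3′ on the gene's own strand; Krt8 is on the minus strand at chr15:102004323-102004592 and Krt18 on the plus strand at chr15:102027966-102028235. Capitals mark matches, on either strand, to the TATA box TATAAA, to the GATA motifs AGATAA and TGATAA, or to the AP-1 motif TGANTCA.
Krt8: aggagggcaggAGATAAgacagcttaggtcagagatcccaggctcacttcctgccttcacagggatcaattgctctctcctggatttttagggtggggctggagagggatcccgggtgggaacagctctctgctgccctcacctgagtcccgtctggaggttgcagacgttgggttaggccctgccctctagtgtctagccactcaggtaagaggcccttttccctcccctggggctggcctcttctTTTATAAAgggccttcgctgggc
Krt18: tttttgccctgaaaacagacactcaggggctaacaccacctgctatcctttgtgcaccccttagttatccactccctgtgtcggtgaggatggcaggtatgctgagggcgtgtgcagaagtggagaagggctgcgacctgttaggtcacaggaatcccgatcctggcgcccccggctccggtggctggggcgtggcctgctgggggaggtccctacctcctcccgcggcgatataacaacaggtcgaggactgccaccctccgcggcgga
Positions are given as distances in bases from the start site, negative before it. Krt8 holds AGATAA at -239 to -234. It holds TATAAA across the start site itself, at -1 to 4, with an overlapping match on the other strand at -3 to 2. Krt18 holds none of the 4 motifs in this window. Of 32851 promoter windows of this length, 12.9% hold TATAAA, 10.5% AGATAA, 8.44% TGATAA and 7.23% TGANTCA, so the matches in Krt8 are common ones. The same table gave windows for Dab2 (2 start sites), Pdgfra and Cubn. Of these, Dab2 alone had matches, with TGATAA and AGATAA at its first start site.

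Knockdown of Gnl3 raised 2 of the 9 genes in ER ribosome-bound RNA, and both were keratins. Krt19 stood at 6.53 and 5.61 CPM in the scramble libraries and at 9.82, 10.7 and 11.1 CPM in the Gnl3 libraries. Every Gnl3 library was above both scramble libraries, and Krt19 rose 1.72-fold (log2 fold change 0.78, SE 0.15, edgeR adjusted p = 0.0023). Krt8 stood at 27.1 and 23.2 CPM with scramble siRNA and at 33.5, 34.2 and 32.6 CPM with Gnl3 siRNA, again without overlap. It rose 1.32-fold (log2 0.40, SE 0.10, edgeR adjusted p = 0.0325). The third keratin of simple epithelia did not follow: Krt18 stood at 21.6 and 19.5 CPM with scramble and at 19.5, 22.6 and 20.6 CPM with Gnl3 siRNA, overlapping throughout, with a log2 fold change of 0.02 (SE 0.11, adjusted p = 0.967). Of all 17632 genes tested in that comparison, 2.68% were called in either direction and 1.51% were called higher with Gnl3 siRNA. The call of Krt8 was lost when any 1 of the 5 libraries was left out (log2 0.29 to 0.53, adjusted p = 0.081 to 0.457), and that of Krt19 when scramble replicate 3 was left out (0.67, adjusted p = 0.117). A pseudogene, Krt8-ps, and the gene Gm36026 on the strand opposite Krt8 could share its reads. Krt8-ps held 0.321 CPM in the scramble and 0.183 CPM in the Gnl3 group, and Gm36026 held 1.15 and 1.82 CPM. Their part in the Krt8 value was not tested.

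Among the transcription factors, Gata6 had the largest estimate under Gnl3 knockdown, and it missed the threshold. Its scramble libraries held 0.809 and 1.16 CPM of ER ribosome-bound RNA and its Gnl3 libraries 1.49, 1.77 and 1.53, without overlap. The log2 fold change was 0.69 with an SE of 0.35 (edgeR adjusted p = 0.383). Gata4 was level at 4.32 and 3.75 CPM with scramble and 4.21, 4.31 and 4.16 CPM with Gnl3 siRNA (log2 0.06, SE 0.19). Sox17 gave 0.24 with an SE of 0.64 on counts of 4 to 10 per library. Dab2, at 2.7 and 3.17 CPM with scramble and 3.39, 2.61 and 3.49 CPM with Gnl3 siRNA, gave 0.08 (SE 0.23). Pdgfra gave 0.07 (SE 0.32) and Cubn 0.74 (SE 0.60). The median of the 9 estimates was 0.24, beside -0.002 over all genes tested, and all 9 share the same 2 scramble libraries. With 1 library left out, the lowest estimates were -0.04 for Gata4, -0.08 for Sox17, -0.03 for Dab2 and -0.06 for Krt18, and that of Cubn ran from 0.12 to 1.90. The ranges of 4 genes did not overlap, where 35.5% of all genes tested had ranges that did not.

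The Nmd3 knockdown called none of the 9 in ER ribosome-bound RNA, where 1.17% of all genes tested were called in edgeR, and DESeq2 called 0 of the 9 as well. None had an unadjusted p under 0.05, which 11.6% of all genes tested had, and 5 of the 9 estimates were above 0. The lowest adjusted p was 0.537, that of Pdgfra, which stood at 1.56 and 1.53 CPM with scramble and at 1.68, 3.20 and 1.78 CPM with Nmd3 siRNA (log2 0.54, SE 0.32). Its excess lay in replicate 2, and without that library the estimate was 0.16. Cubn gave the largest estimate, 1.03 (SE 0.60), on 0.270 and 0.952 CPM with scramble and 1.08, 2.16 and 0.459 CPM with Nmd3 siRNA, and again replicate 2 was the highest library; without it the estimate was 0.29. Replicate 2 is the library that stood apart above: its 87 genes other than Cubn with a coding sequence over 10 kb summed to 2465 CPM, against 1827 to 2125 CPM in the other 7 ER ribosome-bound libraries. The part of this in the Pdgfra and Cubn values was not tested. Krt8 stood at 23.3, 24.3 and 18.7 CPM and Krt18 at 21.6, 21.2 and 17.4 CPM in the Nmd3 libraries, both overlapping scramble (log2 -0.18, SE 0.11, and -0.03, SE 0.11). Krt19, at 6.61, 7.18 and 7.70 CPM, lay above both scramble libraries with an estimate of 0.25 (SE 0.15, adjusted p = 0.561). Krt19 and Pdgfra were the 2 genes whose ranges did not overlap, beside 27.2% of all genes tested.

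**Figure D2:**
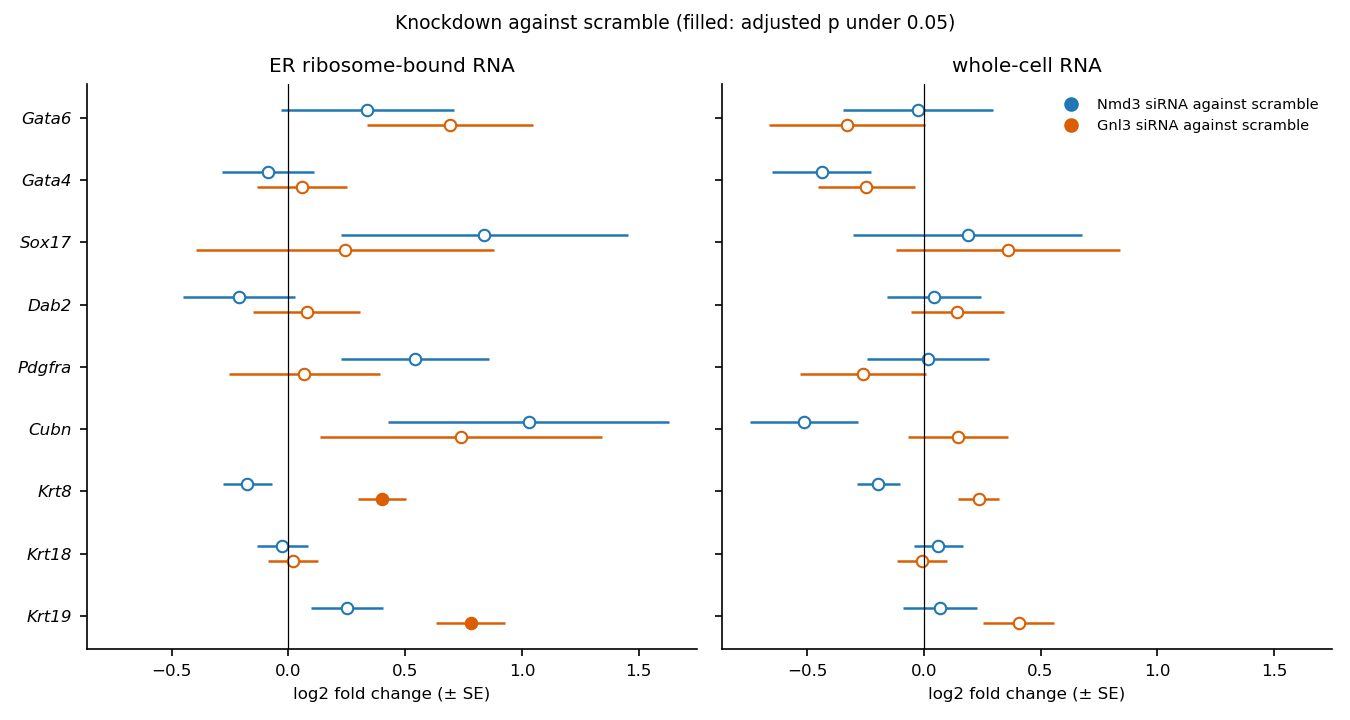
Log2 fold change against scramble (x axis) of each of the 9 genes (y axis) in ER ribosome-bound (left) and whole-cell RNA (right), for the Nmd3 and the Gnl3 siRNA. Points are edgeR estimates, bars are ± SE, and filled points passed an adjusted p of 0.05. The 2 filled points are Krt8 (0.40) and Krt19 (0.78) in Gnl3 ER ribosome-bound RNA; the bars of Sox17 and Cubn are the longest in that fraction.

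Set against each other, the 2 knockdowns differed in ER ribosome-bound RNA at the same 2 keratins. Krt8 was 1.49-fold lower with Nmd3 than with Gnl3 siRNA (log2 -0.58, SE 0.09, edgeR adjusted p = 0.000524), and the highest Nmd3 library, 24.3 CPM, lay below the lowest Gnl3 library, 32.6 CPM. This call held when each library was left out in turn (log2 -0.67 to -0.46, adjusted p at most 0.00787). Krt19 was 1.44-fold lower (log2 -0.53, SE 0.13, edgeR adjusted p = 0.0203), with 7.70 CPM as the highest Nmd3 and 9.82 CPM as the lowest Gnl3 library. Its call was lost without Gnl3 replicate 2 or 3 or Nmd3 replicate 1 (-0.52, -0.50 and -0.48, adjusted p = 0.106, 0.107 and 0.0941). Krt18 was not called (-0.05, SE 0.10), nor was any of the 6 primitive endoderm genes, whose edgeR adjusted p-values were 0.472 to 0.854. The lowest was that of Pdgfra, with an estimate of 0.47 (SE 0.27). The background in that comparison was 2.19% of genes called, 1.21% as lower with Nmd3 siRNA. The ranges of Gata4, Pdgfra, Krt8 and Krt19 did not overlap, which held for 18.1% of all genes tested.

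None of the 9 genes was called in whole-cell RNA, where far fewer genes were called at all: 0.166% with Nmd3 siRNA, 0.812% with Gnl3 siRNA and 0.212% between them. DESeq2 called 0 of the 9 too, and at an unadjusted p under 0.05 in edgeR there were 3 with Nmd3 siRNA, 2 with Gnl3 siRNA and 2 between them, beside 9.69%, 8.5% and 9.29% of all genes tested. Krt19 stood at 7.47, 7.12 and 6.46 CPM with scramble and at 8.49 and 9.91 CPM with Gnl3 siRNA, without overlap (log2 0.41, SE 0.15, adjusted p = 0.369). Krt8 stood at 27.7, 31.3 and 30.2 CPM with scramble, 26.0 and 26.3 CPM with Nmd3 and 34.0 and 35.9 CPM with Gnl3 siRNA. The 3 groups did not overlap (24.9%, 27.1% and 36.5% of all genes tested had no overlap between Nmd3 and scramble, Gnl3 and scramble, and Nmd3 and Gnl3), yet Krt8 missed the threshold with Gnl3 (log2 0.23, SE 0.09, adjusted p = 0.361), with Nmd3 (-0.19, SE 0.09, adjusted p = 0.482) and narrowly between the knockdowns (-0.43, SE 0.10, edgeR adjusted p = 0.0552). Without a filter on low counts that last value was called (adjusted p = 0.0145), as it was without Nmd3 replicate 3 (-0.46, adjusted p = 0.0121). Krt18 was again level at 23.2, 20.1 and 19.8 CPM with scramble, 23.5 and 20.6 CPM with Nmd3 and 19.3 and 22.2 CPM with Gnl3 siRNA.

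The primitive endoderm genes of whole-cell RNA gave no call and no common direction. Cubn was lower in both Nmd3 libraries, 2.25 and 2.74 CPM, than in scramble at 3.95, 2.86 and 3.87 CPM (log2 -0.51, SE 0.23, adjusted p = 0.469). Gata4 stood at 5.46, 4.93 and 4.44 CPM with scramble and lower with Nmd3 siRNA at 2.81 and 4.42 CPM (-0.44, SE 0.21, adjusted p = 0.508) and with Gnl3 siRNA at 4.01 and 4.23 CPM (-0.25, SE 0.21). Gata6, whose estimate was above 0 in ER ribosome-bound RNA with Gnl3 siRNA, gave -0.33 (SE 0.33) in whole-cell RNA, on 1.57, 1.46 and 1.80 CPM with scramble and 0.855 and 1.66 CPM with Gnl3 siRNA. Sox17 gave 0.19 and 0.36 with the Nmd3 and Gnl3 siRNA (SE 0.49 and 0.48), Dab2 0.04 and 0.14 (SE 0.20 and 0.20) and Pdgfra 0.02 and -0.26 (SE 0.26 and 0.27). In each knockdown 3 genes had ranges apart from scramble (Gata4 and Krt8 in both, Cubn with Nmd3 and Krt19 with Gnl3 siRNA).

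The make-up of the keratin pool differed between the Gnl3 libraries and the rest. Each Krt18 count was matched by 1.26 and 1.19 Krt8 counts in the scramble ER ribosome-bound libraries and by 1.08, 1.15 and 1.08 in the Nmd3 libraries, but by 1.71, 1.52 and 1.58 in the Gnl3 libraries. The 3 groups did not overlap. In whole-cell RNA the ratio was 1.19, 1.56 and 1.53 with scramble, 1.11 and 1.28 with Nmd3 and 1.76 and 1.62 with Gnl3 siRNA, where scramble replicate 1 fell among the Nmd3 values. Krt19 made up 18.6% ± 0.553 (SD, n = 2) of the type I chains Krt18 and Krt19 per kb in scramble ER ribosome-bound RNA, 21.8% ± 3.33 (n = 3) with Nmd3 and 28.1% ± 1.29 (n = 3) with Gnl3 siRNA. In whole-cell RNA these shares were 20.5% ± 0.848 (n = 3), 20.6% ± 0.959 (n = 2) and 25.5% ± 0.246 (n = 2). In both fractions the lowest Gnl3 library, 26.8% and 25.4%, lay above the highest library of the other groups, 25.5% and 21.5%. The excluded whole-cell libraries went another way, with 1.04 Krt8 counts per Krt18 count in Gnl3 replicate 3 and a Krt19 share of 29.5% in Nmd3 replicate 2. No test was run on these ratios, which use the same counts as the comparisons above.

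**Figure D3:**
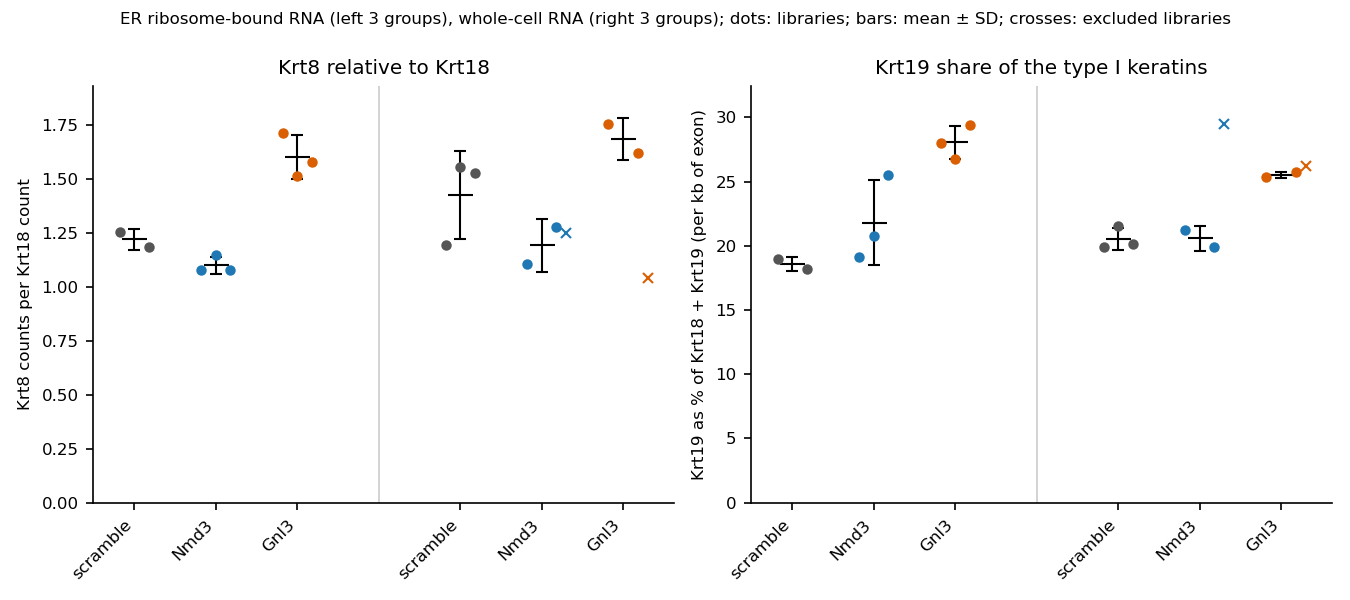
Left: Krt8 counts per Krt18 count in each library. Right: Krt19 as a percentage of Krt18 plus Krt19 per kb of exon. Dots are libraries, bars are mean ± SD of the siRNA groups on the x axis, with ER ribosome-bound RNA on the left and whole-cell RNA on the right of each panel, and crosses are the excluded libraries. In ER ribosome-bound RNA the Gnl3 libraries lie at 1.52 to 1.71 on the left and at 26.8% to 29.4% on the right, above all libraries of the other 2 siRNAs.

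Cubn and Dab2 were lower in ER ribosome-bound than in whole-cell RNA under every siRNA, and no member was called higher. Cubn encodes a giant peripheral membrane protein that is made at the ER and has a coding sequence of 3623 codons. In scramble cells it stood at 0.270 and 0.952 CPM in ER ribosome-bound and at 3.95, 2.86 and 3.87 CPM in whole-cell RNA, 5.86-fold lower at the ER (log2 -2.55, SE 0.46, edgeR adjusted p = 6.62e-05). With Gnl3 siRNA it was 3.89-fold lower (-1.96, SE 0.38, adjusted p = 0.000177), on 1.31, 0.970 and 0.796 CPM against 4.08 and 3.80. With Nmd3 siRNA it was 2.01-fold lower (-1.01, SE 0.41, adjusted p = 0.0445), on 1.08, 2.16 and 0.459 CPM against 2.25 and 2.74, and its groups came close. The Cubn ratio moved with single libraries: it was -3.73 and -1.94 in scramble cells without ER ribosome-bound replicate 3 or 2, and -1.75 in Nmd3 cells without ER ribosome-bound replicate 2. With each lysate as a block, which pairs the fractions, the Cubn ratio was -1.76 in Nmd3 cells. Nmd3 ER ribosome-bound replicate 2 has no analysed whole-cell partner and adds nothing to that ratio. The block is thus no separate check beside leaving this library out. The Nmd3 call was lost in DESeq2 (adjusted p = 0.053). It was also lost without ER ribosome-bound replicate 1 or 3 (-0.92 and -0.59, edgeR adjusted p = 0.112 and 0.163). Without whole-cell replicate 1 or 3 the estimates were -1.16 and -0.83, given without a call because 1 Nmd3 whole-cell library was left.

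Dab2, a cytosolic clathrin adaptor, was 1.46-fold lower at the ER in scramble cells (log2 -0.55, SE 0.22, edgeR adjusted p = 0.0337), 1.74-fold lower with Nmd3 siRNA (-0.80, SE 0.22, adjusted p = 0.00231) and 1.54-fold lower with Gnl3 siRNA (-0.62, SE 0.21, adjusted p = 0.0132). The ER ribosome-bound libraries held 2.24 to 3.49 CPM and the analysed whole-cell libraries 3.64 to 5.07 CPM. All 8 of the first thus lay below all 7 of the second. Within 1 siRNA, the fractions were apart for 62% to 68.1% of all genes tested, and the share over all siRNAs together was not counted. The 2 excluded whole-cell libraries held 2.02 and 9.13 CPM of Dab2. The scramble call was lost in DESeq2 (adjusted p = 0.0801), without a filter (0.0509) and without ER ribosome-bound replicate 2 or 3 or whole-cell replicate 3 (-0.68 to -0.43, adjusted p = 0.052 to 0.195), and the Gnl3 call without ER ribosome-bound replicate 2 or whole-cell replicate 1 (-0.48 and -0.50, adjusted p = 0.087 and 0.134). Krt8 was lower in scramble cells (log2 -0.27, SE 0.10, edgeR adjusted p = 0.0222) and Nmd3 cells (-0.25, SE 0.10, adjusted p = 0.039), and gave -0.10 (SE 0.10, adjusted p = 0.390) in Gnl3 cells. These small Krt8 ratios lost their call without scramble ER ribosome-bound replicate 3 or whole-cell replicate 2 (-0.17 and -0.23), without Nmd3 ER ribosome-bound replicate 3 or whole-cell replicate 1 or 3 (-0.28 to -0.13), and for Nmd3 in DESeq2 (adjusted p = 0.0701).

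These calls stand against a high background. In scramble cells 50.3% of all genes tested were called, 25.3% as lower at the ER, against 3 of the 9 genes. In Nmd3 cells the background was 50.1% and 25.6%, against 3 of 9, and in Gnl3 cells 48.1% and 24.9%, against 2 of 9. Ranges did not overlap for 7, 3 and 3 of the 9 genes in scramble, Nmd3 and Gnl3 cells, where 68.1%, 62% and 66.4% of all genes tested had no overlap. With the 2 excluded libraries included, 1 of the 9 (Cubn) was called in scramble, 0 in Nmd3 and 2 (Cubn and Dab2) in Gnl3 cells. Gata6, Gata4, Sox17 and Pdgfra were also below their whole-cell level in both scramble ER ribosome-bound libraries. Their log2 ratios were -0.73, -0.31, -1.02 and -0.61 (edgeR adjusted p = 0.0795, 0.201, 0.141 and 0.0842). Krt18 and Krt19 gave -0.05 and -0.23 in scramble cells (SE 0.11 and 0.16), with overlapping ranges. Values in the 2 fractions are each relative to the RNA of that fraction, so a ratio below 0 means a smaller share of the pulldown than of the lysate.

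**Figure D4:**
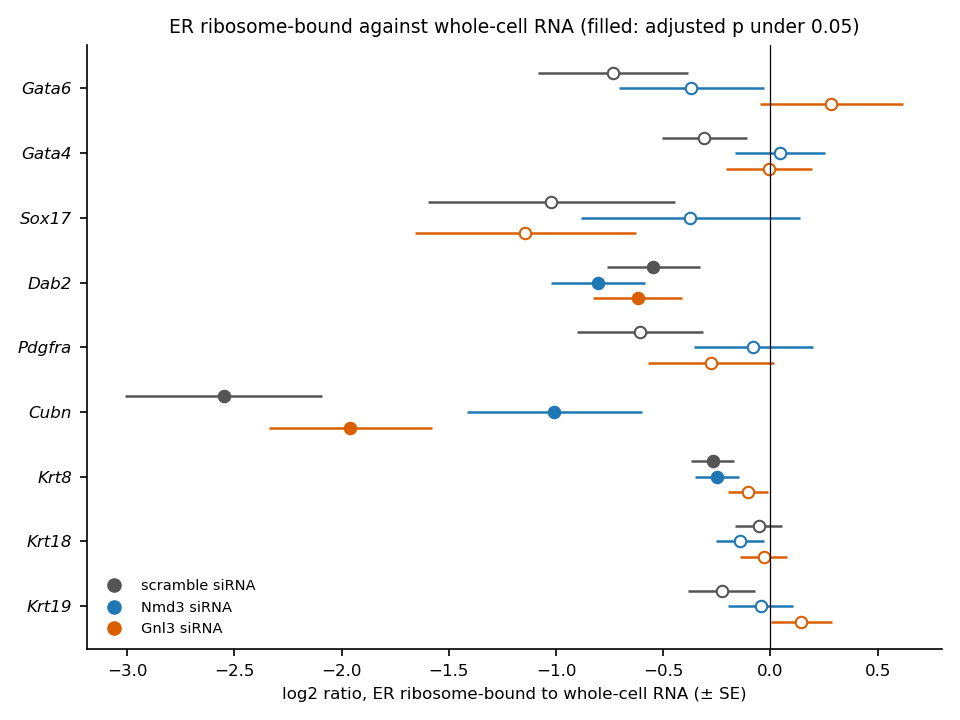
Log2 ratio of ER ribosome-bound to whole-cell RNA (x axis) for each of the 9 genes (y axis) in scramble, Nmd3 and Gnl3 cells. Points are edgeR estimates, bars are ± SE, and filled points passed an adjusted p of 0.05. Cubn lies farthest to the left with scramble (-2.55) and Gnl3 siRNA (-1.96), and Dab2 is filled in all 3.

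Low values of Cubn at the ER were shared with other long messages. Of 88 genes tested with a coding sequence above 10 kb, 61 were called lower and 3 higher in ER ribosome-bound RNA of scramble cells, with a median log2 ratio of -1.21. The median was -1.12 in both knockdowns, with 58 lower in each and 5 (Nmd3) or 3 (Gnl3) higher. Over all 14272 genes with a coding length it was 0.05, 0.04 and 0.03 in scramble, Nmd3 and Gnl3 cells. The members with the shorter coding sequences, from 403 codons in Krt19 to 1089 in Pdgfra, had ratios between -1.14 and 0.28. The part of message length in the Cubn ratio was not tested.

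**Figure D5:**
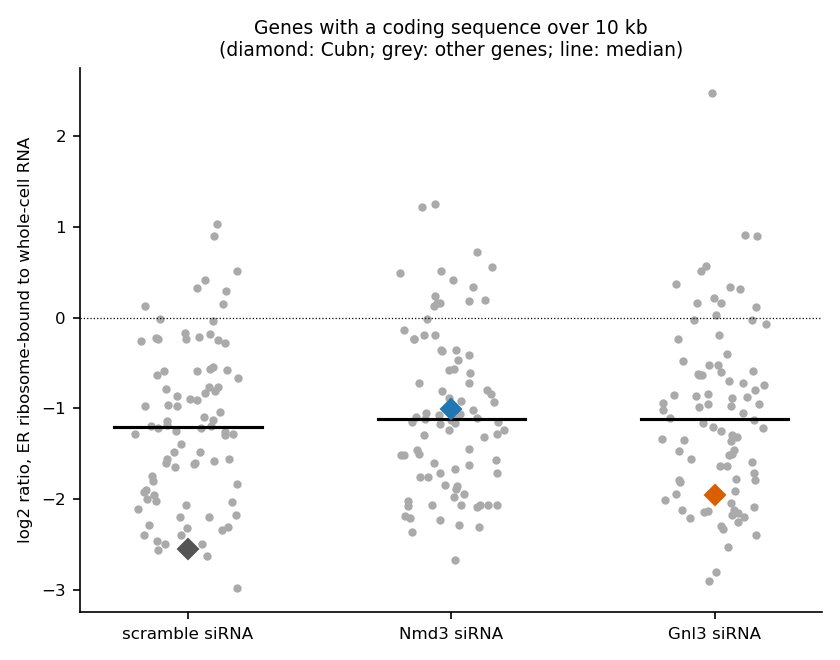
Log2 ratio of ER ribosome-bound to whole-cell RNA (y axis) of the 88 genes with a coding sequence over 10 kb, by siRNA (x axis). Grey dots are single genes, the black lines are the medians of the 88 (-1.21, -1.12 and -1.12), and diamonds are Cubn. The Cubn value in Nmd3 cells, -1.01, was -1.75 without Nmd3 ER ribosome-bound replicate 2.

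Genes of the proteins that work with cubilin went both ways. In scramble cells, the gene of the giant co-receptor megalin, Lrp2, was lower at the ER (log2 -1.56, SE 0.30, edgeR adjusted p = 0.00157). The gene of amnionless, Amn, the small membrane anchor of cubilin, was higher (0.85, SE 0.20, adjusted p = 0.000474), and so was that of the ER chaperone of megalin, Lrpap1 (1.21, SE 0.06, adjusted p = 7.75e-18). Of the 24 listed genes of the cubilin complex and its clathrin adaptors, 8 were higher and 13 lower, with a median of -0.28 beside 0.02 over all genes tested.

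The difference of the ER to whole-cell ratio between a knockdown and scramble was called for none of the 9 genes and for no gene at all in edgeR, so a percent called of 0 stands beside both. At an unadjusted p under 0.05 there were 1078 genes of 18271 for Nmd3 (5.9%) and 649 for Gnl3 (3.55%), and DESeq2 called 2 and 0. Cubn had the largest estimate with Nmd3 siRNA (log2 1.54, SE 0.64, edgeR adjusted p = 0.828), with both scramble and Nmd3 ratios resting on the libraries named above. With Gnl3 siRNA it was Gata6 (1.02, SE 0.48, edgeR adjusted p = 0.999). For Krt8 and Krt19 the estimates with Gnl3 siRNA were 0.17 (SE 0.14) and 0.37 (SE 0.21). The rise of both keratins was thus called in ER ribosome-bound RNA and not in whole-cell RNA, but the test of the difference between the fractions did not pass.

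Genes around the 9, above and below, were read from lists that were chosen with earlier results of these data known. Their counts of called genes are therefore descriptions and no independent test of the lists. Of the other transcription factors of primitive endoderm, 9 were listed and 6 tested in ER ribosome-bound RNA. None was called in either knockdown (medians 0.08 with Nmd3 and 0.25 with Gnl3 siRNA), and 5 were tested in whole-cell RNA with the same outcome. Hhex was the highest of them at 4.34 to 6.96 CPM over the 15 libraries, followed by Snai1 at 1.62 to 5.26 CPM. Sox7 was counted at 0.953 to 2.61 CPM and Hnf4a at 0.559 to 1.29 CPM, while Foxa2 did not exceed 0.482 CPM. Of the tested products of visceral and parietal endoderm, 5 of 29 rose and none fell with Gnl3 siRNA in ER ribosome-bound RNA (median 0.19), where 2.68% of all genes tested were called. With Nmd3 siRNA 3 of 29 rose and none fell (median 0.21), beside 1.17% of all genes tested. The largest were the protease inhibitor Serpine2, from 50.5 ± 0.535 to 72.0 ± 2.04 CPM with Gnl3 siRNA (log2 0.50, SE 0.07, edgeR adjusted p = 0.000168), and the clotting inhibitor Tfpi, from 33.6 ± 1.96 to 45.2 ± 4.38 CPM with Nmd3 siRNA (log2 0.44, SE 0.09, edgeR adjusted p = 0.0061). The basement membrane collagen Col4a1 rose with Gnl3 siRNA (log2 0.49, SE 0.12, edgeR adjusted p = 0.0299). In whole-cell RNA, where 0.166% (Nmd3) and 0.812% (Gnl3) of all genes tested were called, 1 of 28 rose in each knockdown, Rhox5 with Nmd3 (0.50, SE 0.11, edgeR adjusted p = 0.0468) and Serpine2 with Gnl3 siRNA (0.53, SE 0.11, edgeR adjusted p = 0.00879). Between 9 and 12 of the 38 listed products lay under 0.5 CPM in each group, and Apoa4 had 0 counts in all 15 libraries.

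The receptor pathway of the set showed small changes. Of 39 genes of FGF, PDGF and ERK signalling, 4 rose and none fell with Gnl3 siRNA and 1 rose with Nmd3 siRNA in ER ribosome-bound RNA, beside 2.68% and 1.17% of all genes tested that were called. Pdgfa, a ligand of Pdgfra, rose with Nmd3 siRNA in both fractions, from 95.9 ± 3.41 to 119 ± 6.33 CPM in ER ribosome-bound RNA (log2 0.32, SE 0.06, edgeR adjusted p = 0.00202) and from 54.7 ± 2.07 to 75.1 ± 11.4 CPM in whole-cell RNA (0.45, SE 0.08, edgeR adjusted p = 0.00348). With Gnl3 siRNA the highest were Phlda1 (0.60, SE 0.09, edgeR adjusted p = 0.000231) and the ERK inhibitor Spred1 (0.33, SE 0.07, edgeR adjusted p = 0.0176). Of the cubilin and clathrin list, Lrpap1 rose in ER ribosome-bound RNA with Nmd3 siRNA (0.23, SE 0.05, edgeR adjusted p = 0.0336).

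No other keratin was called with either siRNA, while a few genes of a mixed list of epithelial junctions and keratin partners were. Only 5 of 19 other keratins were tested in ER ribosome-bound RNA and 4 in whole-cell RNA, and none was called in either knockdown (ER medians -0.25 with Nmd3 and -0.10 with Gnl3 siRNA). The most abundant was Krt42, at 8.53 to 17.4 CPM, followed by Krt17 at 3.07 to 5.56 CPM, and Krt7, a type II chain of simple epithelia, reached 0.980 to 2.90 CPM. Of 44 tested genes of epithelial junctions and keratin partners, 4 rose and none fell with Gnl3 siRNA and 5 rose and none fell with Nmd3 siRNA in ER ribosome-bound RNA, beside 2.68% and 1.17% of all genes tested that were called. In whole-cell RNA 2 of 43 rose with Gnl3 and 0 with Nmd3 siRNA, beside 0.812% and 0.166%. Perp, a membrane protein of desmosomes, rose from 93.7 ± 3.91 to 159 ± 7.06 CPM with Gnl3 siRNA (log2 0.75, SE 0.06, edgeR adjusted p = 4.97e-09) and to 115 ± 5.57 CPM with Nmd3 siRNA (0.30, SE 0.06, edgeR adjusted p = 0.00506). Anxa2, a membrane-binding annexin, rose by 0.52 (SE 0.06) with Gnl3 and by 0.39 (SE 0.07) with Nmd3 siRNA. In whole-cell RNA both rose with Gnl3 siRNA (Perp 0.64, SE 0.07, and Anxa2 0.47, SE 0.07). The medians of the 44 were 0.08 with Gnl3 and 0.05 with Nmd3 siRNA, close to the 0.00 of all genes tested.

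Markers of other states and cell types were read beside the keratins, in ER ribosome-bound RNA against the 2.68% (Gnl3) and 1.17% (Nmd3) of all genes tested that were called. Pluripotency genes gave 6 of 31 lower and none higher with Gnl3 siRNA in ER ribosome-bound RNA (median -0.07), among them Dppa3, from 11.5 ± 0.278 to 7.72 ± 0.455 CPM (log2 -0.58, SE 0.14, edgeR adjusted p = 0.017), and Nanog, the factor that opposes Gata6 in the blastocyst, from 592 ± 9.46 to 502 ± 15.2 CPM (-0.25, SE 0.04, edgeR adjusted p = 0.000955). With Nmd3 siRNA 1 rose, Tbx3 (0.33, SE 0.05, edgeR adjusted p = 0.000638), and in whole-cell RNA none was called in either knockdown. Trophectoderm, which also expresses Krt8 and Krt18, gave 1 of 18 higher with Gnl3 siRNA in ER ribosome-bound RNA (Fgfbp1, 0.33, SE 0.08, edgeR adjusted p = 0.0337). Its 22 genes summed to 413 to 419 CPM with scramble and 379 to 416 CPM with Gnl3 siRNA in that fraction. Their levels were uneven over the 15 libraries: Phlda2 held 91.2 to 131 CPM and Tfap2c 78.6 to 105 CPM, while the placental markers Tpbpa and Prl3d1 were at 0. Mesoderm, definitive endoderm and neural markers gave 2 of 18 lower in each knockdown, Otx2 in both (-0.46, SE 0.09, with Nmd3 and -0.53, SE 0.09, with Gnl3). Of 12 fibroblast and feeder cell markers tested, none was called in either knockdown. The summed level of the listed genes without Fn1 was 119 to 120.5 CPM with scramble siRNA in ER ribosome-bound RNA. It was 124 to 136 CPM with Nmd3 and 137 to 143 CPM with Gnl3 siRNA, a higher range in each knockdown. In whole-cell RNA it was 86.0 to 90.7 CPM with scramble, 83.9 to 86.2 with Nmd3 and 91.6 to 95.6 with Gnl3 siRNA. The Nmd3 range thus overlapped scramble and reached lower in that fraction. Levels within the list were uneven over the 15 libraries: Col1a2 stayed between 0.153 and 1.03 CPM, while Thy1 held 8.18 to 33.2 CPM and Col5a1 15.9 to 30.8 CPM. The part of these cell types in the keratin values was not tested.

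Across libraries the 9 genes did not vary as one. After each library's log2 CPM was taken as its deviation from the mean of its fraction, Krt8 and Krt19 went together over the 15 libraries (Pearson r = 0.69), while Krt8 and Krt18 (0.24) and Krt18 and Krt19 (0.17) did not. These libraries share groups and controls, and differences between the siRNA groups were left in, so the values are descriptions. The r of Krt8 and Krt19 thus includes their higher level in the Gnl3 libraries, and the likeness values below were made the same way. Only the 3 keratins averaged at least 5 CPM, the level set for naming the genes most like a member among 11523 genes. Krt19 was most like Csrp1 (r = 0.93), Klf6 (0.91) and the lipid droplet gene Plin2 (0.90). Krt8 was most like Gm21844 (0.91), the stress-induced gene Ddit4 (0.90) and the thiamine transporter Slc19a2 (0.90), and Krt18 like Gm20033 (0.85), Adam15 (0.84) and 1700088E04Rik (0.81). Klf6, as an example, stood at 62.5 CPM with scramble, 70.7 with Nmd3 and 94.6 with Gnl3 siRNA in ER ribosome-bound RNA, an order shared with Krt19. The correlations among the 6 low genes ranged from -0.51 (Gata4 and Sox17) to 0.50 (Pdgfra and Cubn) and rest on few counts.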

How the data were processed

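PolyA RNA of 17 libraries was analysed from raw counts per gene that the authors deposited; the submitters' processing notes name STAR 2.7.9a, HTSeq 0.11.2, DESeq2 and the build GRCm39. The annotation release and the strand setting of the counting are not given in the sources used here, and the library kit is directional per the labels' protocols. The 5 HTSeq summary lines of each file stayed out of all totals: reads in no gene made up 46.6 to 48.3% of all reads listed, those with no unique position 5.11 to 10.2% and ambiguous ones 0.357 to 0.568%. Gene symbols, exon lengths and coding lengths were taken from GENCODE M21 (GRCm38). Levels are CPM, the counts of a gene scaled to 1000000 gene counts per library.

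Tests used edgeR 4.0.16 in R 4.3.3: filterByExpr, TMM factors, robust quasi-likelihood fits and Benjamini-Hochberg adjustment over all genes tested, with an adjusted p of 0.05 as the threshold. ER ribosome-bound libraries (8), whole-cell libraries (7) and both together (15) were fitted separately, with 17632, 17490 and 18271 genes. The SE of a fold change was taken as its absolute log2 value over the root of the F statistic. The 2 libraries that the submitters excluded were left out, unlike in an earlier analysis of these data that used all 17. Replicates carry the label of biological replicates, and scramble ER ribosome-bound replicate 1 was not analysed here.

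The steps were tested on simulated data. Alternatives were RLE size factors, library totals alone, no filter, DESeq2 1.42.0, a replicate block, the 2 excluded libraries, and each library left out in turn; where that left 1 library in a group, it was assumed to vary like the other groups. Same-numbered libraries of different siRNAs did not deviate together (r = -0.13 to 0.08 over 12 pairs), while the fractions of a culture come from 1 lysate and are paired by design (r = -0.04 to 0.11 over 6 pairs). The members and gene lists were chosen with earlier results of these data known. Named from each list were at most 2 called genes per direction with the largest change; list genes given by level alone, Fn1, Krt8-ps and Gm36026 were chosen after their values were seen. A listed gene that this rule would name is not reported here. Likeness used log2 CPM with a prior count of 3.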

Additional observations from a re-analysis of the deposited data

Results flagged for a closer look

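The 2 knockdowns differed from each other in ER ribosome-bound RNA at 2 keratins by the test of that difference. Krt8 differed by -0.58 (log2, Nmd3 against Gnl3 siRNA) and Krt19 by -0.53.

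The libraries that the submitters excluded held levels outside the range of the whole-cell libraries analysed, and high levels of 3 genes were flagged. Gata6 stood at 4.39 CPM in Gnl3 whole-cell replicate 3, against 0.855 to 1.81 CPM in the 7 whole-cell libraries analysed, and Dab2 stood at 9.13 CPM in the same library, against 3.64 to 5.07 CPM. Krt19 stood at 13.6 CPM in Nmd3 whole-cell replicate 2, against 6.46 to 9.91 CPM. Low levels occurred too: that library held 0.351 CPM of Cubn, against 2.25 to 4.08 CPM, and 2.02 CPM of Dab2, below the Dab2 range above. The 3 flagged genes are thus not the only ones outside the range.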

How the results depend on the processing

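Over the 9 genes and 11 comparisons, no estimate that was called changed sign. Of the single-gene estimates, 518 kept their call or lack of it under another processing, 10 lost a call and 1 gained one; with a library left out, 557 kept it, 23 lost a call and 1 gained one. With the replicate number as a block, the members called with Gnl3 against scramble siRNA in ER ribosome-bound RNA went from 2 to 1 (Krt8 0.38, edgeR adjusted p = 0.0521); it changed no other call. DESeq2 called 1 between the knockdowns in ER ribosome-bound RNA, where Krt19 had no adjusted p, and 1 between fractions in Nmd3 cells. Without a filter 1 was called between the knockdowns in whole-cell RNA. With the 2 excluded libraries, 1 was called between fractions in scramble and 0 in Nmd3 cells, and the median of all genes in Nmd3 cells moved by -0.12. With a library left out, the members called in ER ribosome-bound RNA were 0 to 0 for Nmd3, 0 to 1 for Gnl3 and 1 to 2 between them; in whole-cell RNA 0 to 0, 0 to 0 and 0 to 1; between fractions 1 to 3 in scramble, 1 to 3 in Nmd3 and 1 to 2 in Gnl3 cells; and for the differences of ratios 0 to 0 in both.

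Counts over all genes moved more. In ER ribosome-bound RNA, 206 called genes with Nmd3 siRNA became 407 without a filter, 126 with the block and 23 to 366 with a library left out; 472 with Gnl3 siRNA became 258 with the block and 70 to 299; and 387 between the knockdowns became 586 without a filter and 159 to 703. Library totals alone moved the last split from 174 higher and 213 lower to 145 and 272. In whole-cell RNA, 29 became 115 without a filter and 8 to 1024 (1024 without Nmd3 replicate 3), 142 became 17 to 66, and 37 became 122 without a filter, 63 with the block and 7 to 983; all 3 were 0 with the excluded libraries. Between fractions, those libraries took 9197, 9152 and 8795 to 2353, 2819 and 4540. For the difference of ratios, 0 with Nmd3 siRNA became 1 with library totals alone, 14 without a filter, 2 in DESeq2, 1 with the block and up to 304, and 0 with Gnl3 siRNA became 1 without a filter. Counts of 1 to 18 for Sox17 and 5 to 88 for Cubn limit what these libraries can resolve.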
